A study of Homo sapiens with 20 samples.

Results

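The loci of 6 genes, C9orf3, SND1, COL8A1, FILIP1L, TTC28 and KCNH1, were examined in 5 windows of the human genome build hg19, since COL8A1 and FILIP1L are neighbours and share 1 window. They were selected on measured values: at these places, peaks of H3K27ac were seen to fill long stretches of chromatin when SMARCB1 was induced. Members are therefore all peaks that overlap the windows. These came to 70 of 98251 peaks in GFP replicate 1, 66 of 79555 in GFP replicate 2, 750 of 145533 in SMARCB1 replicate 1 and 677 of 135472 in SMARCB1 replicate 2. Because the windows were chosen from the same contrast, every comparison of GFP with SMARCB1 below is a description and carries no test.

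The cells were G401, a human rhabdoid tumour line whose genotype is SMARCB1(-/-). All groups share this genotype, and doxycycline induced either GFP, the control, or SMARCB1. Of 20 samples in 10 groups, the 2 GFP and 2 SMARCB1 libraries immunoprecipitated with a rabbit monoclonal antibody to H3K27ac were used, and those for H3K4me3, H3K4me1, SMARCA4 and input were not analysed here. The labels give replicate numbers but not whether replicates were separate cultures, and no time or dose of induction.

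H3K27ac is the acetylation of lysine on the tail of histone H3 that marks active promoters and enhancers. It is added by the acetyltransferases p300 and CBP. SMARCB1 is a core subunit of the SWI/SNF (BAF) complexes, which use ATP to move or evict nucleosomes, and its loss defines most rhabdoid tumours. When many acetylated elements lie close together they are often read as 1 large enhancer domain.

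The members have unrelated products. C9orf3, now named AOPEP, encodes aminopeptidase O. SND1 encodes an RNA-binding protein with staphylococcal nuclease-like and Tudor domains. COL8A1 encodes the alpha 1 chain of the short-chain collagen VIII, and FILIP1L encodes a filamin A interacting protein-like protein. TTC28 encodes a large tetratricopeptide repeat protein, and KCNH1 encodes a voltage-gated potassium channel of the EAG family. In RefSeq on GRCh38.p14 all 6 symbols matched, and the genes span 161 kb (COL8A1), 286 kb (FILIP1L), 424 kb (C9orf3), 440 kb (SND1), 456 kb (KCNH1) and 702 kb (TTC28). Their coding neighbours there are FBP1 and PTCH1 for C9orf3, PAX4 and LEP for SND1, DCBLD2 and CMSS1 for COL8A1, COL8A1 and TBC1D23 for FILIP1L, PITPNB and CHEK2 for TTC28, and HHAT and RCOR3 for KCNH1. C9orf3 overlaps FANCC, SND1 overlaps LRRC4 and FILIP1L overlaps CMSS1, so a peak inside these stretches cannot be given to 1 gene. RefSeq coordinates were not set against the hg19 peaks, and the position of a block within its gene was not determined here.

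C9orf3 also hosts 6 miRNA genes, more than any other member. Among them are MIR23B, MIR27B and MIR24-1, which lie in a cluster. Their 3p mature sequences are shown as examples of what this locus, the one with most blocks, encodes beside the peptidase. The RefSeq sequences (GRCh38.p14, plus strand) run 5′ to 3′ with the seed, bases 2 to 8, in capitals.
miR-23b-3p: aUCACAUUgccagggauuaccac
miR-27b-3p: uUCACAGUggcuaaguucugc
miR-24-3p: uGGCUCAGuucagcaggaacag
The seeds of the 3 differ from each other. SND1 hosts MIR593, FILIP1L hosts MIR3921 and TTC28 hosts MIR5739, while COL8A1 and KCNH1 host none in that table.

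The promoters of the members differed in their content of CG dinucleotides. RefSeq sequences of 250 bases before a start were at hand for 5 of the 6 genes, with 2 starts each for C9orf3, FILIP1L and TTC28. In each of these 3 genes 1 start was rich in CGs and the other poor, with 22 and 2 CGs in C9orf3, 38 and 0 in FILIP1L and 41 and 5 in TTC28. The single starts of SND1 and KCNH1 had 25 CGs each. The median of all 35116 promoters was 11. The pair of FILIP1L, with the largest contrast of the 3, and the start of KCNH1, whose window held no GFP peak beyond a start-proximal pair, are shown on the minus strand of GRCh38.p14, 5′ to 3′, with each CG in capitals.
FILIP1L, first start: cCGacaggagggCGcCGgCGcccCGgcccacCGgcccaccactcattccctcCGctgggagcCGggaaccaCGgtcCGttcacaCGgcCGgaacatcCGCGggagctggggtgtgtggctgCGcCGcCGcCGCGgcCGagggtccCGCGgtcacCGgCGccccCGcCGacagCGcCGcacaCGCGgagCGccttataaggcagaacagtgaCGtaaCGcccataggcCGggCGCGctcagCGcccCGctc
FILIP1L, second start: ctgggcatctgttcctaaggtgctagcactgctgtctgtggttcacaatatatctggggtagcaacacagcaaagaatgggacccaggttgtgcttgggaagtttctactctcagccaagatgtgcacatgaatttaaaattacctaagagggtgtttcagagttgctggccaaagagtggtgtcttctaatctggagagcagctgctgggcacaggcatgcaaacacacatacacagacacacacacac
KCNH1: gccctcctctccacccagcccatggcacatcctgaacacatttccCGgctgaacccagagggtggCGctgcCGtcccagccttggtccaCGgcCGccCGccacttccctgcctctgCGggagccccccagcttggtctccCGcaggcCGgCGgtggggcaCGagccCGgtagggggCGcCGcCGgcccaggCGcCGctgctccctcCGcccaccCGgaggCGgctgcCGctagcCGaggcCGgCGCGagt
The motif TGANTCA, which is its own reverse complement and is bound by AP-1 factors, was searched for on both strands. It matched in none of the 8 member promoters and in 6.57% of all promoters of that length.

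Depth bears on every count of peaks and is given first. The files hold no read totals, but each peak's fold enrichment and p-value fix the whole number of fragments at its summit and the background it was called against. The background over the genome, a relative measure of depth that also grows with fragment length, was 1.82 and 3.74 fragments in GFP replicates 1 and 2. In SMARCB1 replicate 2 it was 3.89, and in SMARCB1 replicate 1 it was 4.79 before the scaling by 0.855 that its list carries. The libraries of replicate 2 were thus close in depth, while GFP replicate 1 was the shallowest of the 4. At these backgrounds a peak needed at least 7, 11, 13 and 11 summit fragments, in GFP replicates 1 and 2 and SMARCB1 replicates 1 and 2. Peaks covered 85.6 Mb of the genome on average with GFP and 111 Mb with SMARCB1, a ratio of 1.30.

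All 5 windows held far more H3K27ac peaks with SMARCB1 than with GFP. The plot of coverage by library shows the percentage of each window that lay under peaks.

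**Figure D1:**
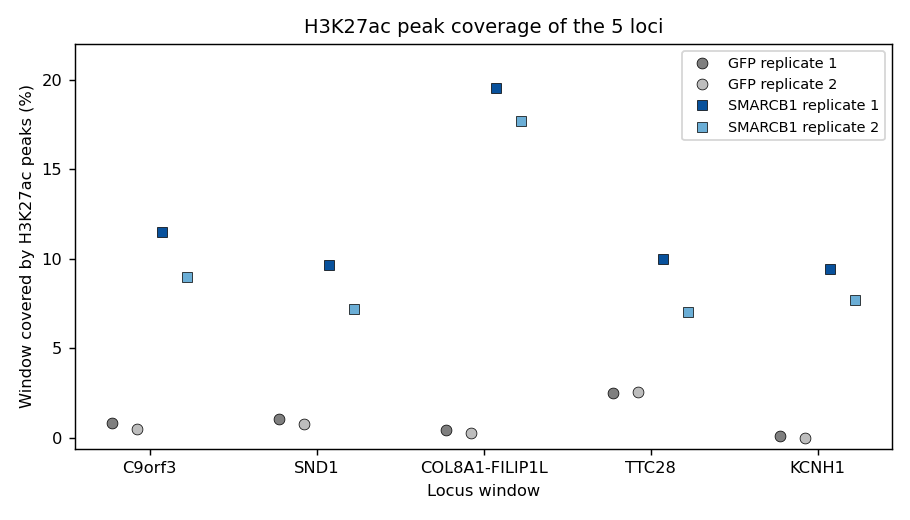
Percentage of each of the 5 windows covered by H3K27ac peaks, 1 point per library, with circles for GFP and squares for SMARCB1. In each window both SMARCB1 points lie above both GFP points, and the COL8A1-FILIP1L window has the highest SMARCB1 values, 19.6% and 17.7%.

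In the COL8A1-FILIP1L window, on chromosome 3 from 99300001 to 100000000, peaks numbered 5 and 4 in GFP replicates 1 and 2 and 147 and 156 in SMARCB1 replicates 1 and 2. They covered 0.461% and 0.293% of the window with GFP and 19.6% and 17.7% with SMARCB1. The lower SMARCB1 value was 38.3 times the higher GFP value.

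The KCNH1 window, on chromosome 1 from 210800001 to 211350000, was the emptiest with GFP. It held 2 peaks in GFP replicate 1 and 0 in GFP replicate 2, against 81 and 80 with SMARCB1. Coverage was 0.111% and 0% with GFP and 9.44% and 7.73% with SMARCB1. A window without a peak may still hold acetylation too weak to be called.

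In the C9orf3 window, on chromosome 9 from 97000001 to 98000000, the lists held 21 and 10 peaks with GFP and 180 and 157 with SMARCB1. Coverage was 0.851% and 0.486% with GFP and 11.5% and 8.97% with SMARCB1. The SND1 window, on chromosome 7 from 127000001 to 128000000, held 12 peaks in each GFP library and 174 and 152 with SMARCB1, and its coverage was 1.06% and 0.783% against 9.65% and 7.20%. These loci thus resembled each other, with a handful of GFP peaks in a megabase and a coverage at least 10.5 times (C9orf3) and 6.80 times (SND1) as high with SMARCB1.

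The TTC28 window, on chromosome 22 from 28250001 to 29100000, differed least. It held 30 and 40 peaks with GFP and 168 and 132 with SMARCB1, and coverage was 2.52% and 2.55% against 9.98% and 7.03%. The lower SMARCB1 value was 2.76 times the higher GFP value.

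As means, coverage was 0.377% ± 0.119 with GFP and 18.6% ± 1.33 with SMARCB1 in the COL8A1-FILIP1L window (SD, n = 2). It was 0.668% ± 0.258 and 10.2% ± 1.78 in the C9orf3 window, 0.921% ± 0.196 and 8.42% ± 1.73 in the SND1 window, 0.0557% ± 0.0788 and 8.58% ± 1.21 in the KCNH1 window, and 2.54% ± 0.0205 and 8.51% ± 2.09 in the TTC28 window (SD, n = 2). The difference between the means was larger than the spread of either group in each window and averaged 9.96 percentage points over the 5. SMARCB1 replicate 1, the deeper library, was above SMARCB1 replicate 2 in all 5 windows. Within the libraries of replicate 2, which were close in depth, the differences were 17.4 points (COL8A1-FILIP1L), 8.49 (C9orf3), 7.73 (KCNH1), 6.42 (SND1) and 4.48 (TTC28).

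Across the genome, coverage was higher in both SMARCB1 libraries than in both GFP libraries in 59.6% of 2192 windows of 1 Mb with any peak, and the median difference was 0.453 percentage points. Since the rule used this contrast, the share of member windows is not read against that background. For size, 8 of 2856 windows of 0.7 Mb had a difference at least as large as that of COL8A1-FILIP1L. For C9orf3 it was 33 and for SND1 56 of the 2192 windows of 1 Mb, for KCNH1 143 of 3406 windows of 0.55 Mb, and for TTC28 147 of 2464 windows of 0.85 Mb. The COL8A1-FILIP1L window was thus the most extreme of the 5 and the TTC28 window the least.

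Most intervals in the windows had no GFP peak at all. When overlapping peaks were joined across the 4 lists, the windows held 855 of the genome's 167933 regions, and 72 of the 855 contained a GFP peak. A region is called gained here if both SMARCB1 lists and no GFP list have a peak there, lost in the reverse case, and common if all 4 lists do. Of the 855 regions 315 (36.8%) were gained, 1 was lost and 31 were common. Over the genome 17.5% of regions were gained, 3.94% were lost and 16.7% were common. Nothing is read from the shares in the windows, which were chosen for their gain. The share of regions with a GFP peak over the genome was not determined here. The gained regions numbered 80 of 152 in the COL8A1-FILIP1L window, 74 of 198 in that of C9orf3, 72 of 202 in that of SND1, 49 of 200 in that of TTC28 and 40 of 103 in that of KCNH1. Common regions numbered 17 in the TTC28 window, 6 in that of SND1, 5 in that of C9orf3, 3 in that of COL8A1-FILIP1L and 0 in that of KCNH1.

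Each window also held regions marked in a single SMARCB1 library. Regions with a peak in SMARCB1 replicate 1 alone numbered from 37 of 103 (KCNH1) to 79 of 202 (SND1). Those in SMARCB1 replicate 2 alone numbered from 25 of 103 (KCNH1) to 39 of 202 (SND1). The share of such regions over the genome was not determined here, so nothing is read from these counts. By covered length the replicates shared 75.6% of SMARCB1 replicate 1 and 83.6% of SMARCB1 replicate 2 in the COL8A1-FILIP1L window. The shares were lowest in the TTC28 window, at 47.4% and 67.4%. They were 61.7% and 78.9% for C9orf3, 60.6% and 74.0% for KCNH1 and 54.3% and 72.8% for SND1. The filling was thus most alike between replicates in the collagen and filamin-interactor window.

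The strongest gained regions were picked by their fold enrichment, so a high place in their own lists follows in part from that choice. Fold enrichment, the ratio of a summit to its background as the authors' caller gave it, is compared only within a list, where the median was 3.72 in SMARCB1 replicate 1 and 3.68 in SMARCB1 replicate 2. In the COL8A1-FILIP1L window, the region from 99644025 to 99649901 reached 14.7 and 12.5, from 102 and 71 summit fragments, and lay 12474 bp from the nearest GFP peak. The region from 99626200 to 99630438 reached 12.4 and 12.9, but a peak of GFP replicate 1 lay 641 bp away. In SMARCB1 replicate 1 these stood at or above 98.5% and 96.8% of the list.

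In the SND1 window, the region from 127594431 to 127596906 reached 12.6 and 10.8 and had no GFP peak within 118263 bp. It was followed by its neighbour from 127591597 to 127594153, with 6.74 and 5.94. In the lists of SMARCB1 replicates 1 and 2 the first stood at or above 97.0% and 96.3%, and the neighbour 86.7% and 84.8%. In the KCNH1 window, the region from 211240064 to 211242425 reached 13.0 and 10.6 and that from 210987988 to 210989617 reached 11.3 and 9.01, with the nearest GFP peaks 64341 and 317149 bp away. The KCNH1 regions stood at or above 97.3% and 95.4% of the list of SMARCB1 replicate 1 and 96.0% and 93.5% of that of SMARCB1 replicate 2.

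In the C9orf3 window, the region from 97675649 to 97676620 reached 12.3 and 10.6 and that from 97682026 to 97690847, 8822 bp long, reached 12.1 and 9.41. Peaks of GFP replicate 1 lay 385 and 1172 bp from them, so here the strongest gain was beside acetylation already called in that library. These GFP peaks were small, covering 2.08% and 2% of their 10 kb bins. GFP replicate 2 had no peak in the same bins. In the TTC28 window the leading regions were weaker, from 28499720 to 28501654 with 9.09 and 6.96 and from 28255587 to 28256738 with 7.58 and 6.75. They stood at or above 92.1% and 89.0% of the list of SMARCB1 replicate 1 and 88.7% and 88.0% of that of SMARCB1 replicate 2.

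Some acetylated places were called in all 4 lists. The strongest common region of the TTC28 window, from 28313830 to 28315301, had a fold enrichment of 25.9 and 15.8 in the GFP lists and 16.3 and 13.3 in the SMARCB1 lists. That of the COL8A1-FILIP1L window, from 99536185 to 99537136, had 13.1 and 11.2 in the GFP lists and 11.3 and 11.1 in the SMARCB1 lists. The strongest in the SND1 window lay from 127031125 to 127033522, and that in the C9orf3 window from 97488981 to 97489832. Each of these 4 held a peak that the authors' tables leave out of their start-distal stitched regions. The lost region, in the C9orf3 window from 97317424 to 97318757, had 5.67 and 5.07 in the GFP lists, also with a peak left out in this way. It is part of a cluster from 97316471 to 97318757 in which both SMARCB1 lists kept 1 peak, against 3 and 2 peaks in the GFP lists. The cluster was thus not lost as a whole. Coverage of the 10 kb bin around it was lower, however, at 2.42% and 2.22% with SMARCB1 against 19.1% and 8.82% with GFP.

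Whether the loci were filled as blocks was examined in bins of 10 kb. A bin counts as filled if each SMARCB1 library covers at least 10% of it and the lower SMARCB1 coverage is at least 2 times the higher GFP coverage. A block is a run of at least 5 filled bins that may bridge 1 other bin. Of the 410 bins of the windows 95 (23.2%) were filled, and 75 of the 95 held no GFP peak. Over the genome 2.4% of bins were filled, a background from which nothing is read here. The rule itself favours bins with few GFP peaks. The share of filled bins without a GFP peak was not determined over the genome, so nothing is read from it either. The profiles along the loci show where the filled bins lay.

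**Figure D2:**
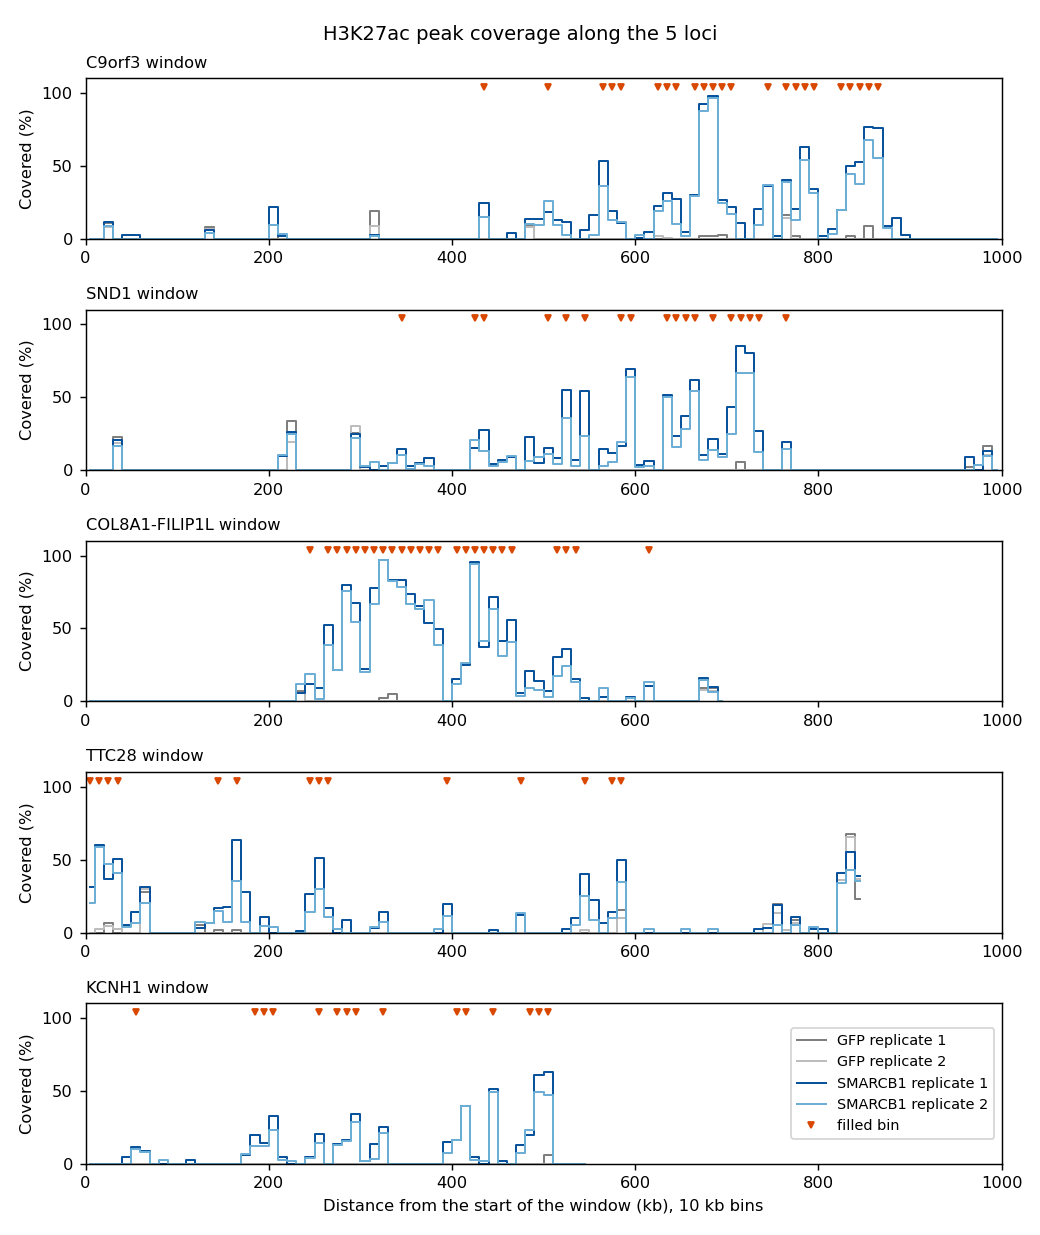
Percentage of each 10 kb bin covered by H3K27ac peaks along the 5 windows, 1 line per library, against the distance from the window's start in kb; triangles mark filled bins. The longest run of filled bins has 13 bins in the COL8A1-FILIP1L window, against 5 (C9orf3), 4 (SND1), 4 (TTC28) and 3 (KCNH1).

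By this definition 3 of the 5 windows held blocks and 2 did not. Blocks were found in the COL8A1-FILIP1L window (1), the C9orf3 window (3) and the SND1 window (1), with a summed length of 517 kb. No block was found in the windows of TTC28 and KCNH1, although they had 14 and 15 filled bins. There the filled bins lay in patches, in the KCNH1 window from 210850001 to 211310000 and in the TTC28 window from 28250001, the first bin of the window, to 28840000.

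The COL8A1-FILIP1L block, named after its window, ran from 99540840 to 99767657, 226.8 kb. The name does not mean that the block covers both genes, since which of them it overlaps was not determined here. It was number 3 by length of 250 blocks in the genome, whose median length was 69.9 kb. Peaks covered 0.312% and 0% of it with GFP and 52.4% and 48.6% with SMARCB1. It held 2 and 0 GFP peaks against 111 and 121 SMARCB1 peaks, and 60 gained regions with 0 common ones. The median width of its SMARCB1 peaks was 527 and 525 bp, against 402 and 379 bp over the whole lists. A block is defined by coverage, which favours wide peaks, so nothing is read from this. Both medians were also above the lists' own in the first block of the C9orf3 window, at 456.5 and 474 bp, but not in the members' other blocks. The median fold enrichment of the peaks in the COL8A1-FILIP1L block, 4.06 and 4.30, was little above the lists' own 3.72 and 3.68.

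The 3 blocks of the C9orf3 window followed each other from 97624530 to 97704234 (79.7 kb), from 97740340 to 97795435 (55.1 kb) and from 97820692 to 97870000 (49.3 kb). SMARCB1 coverage was 44.5% and 39.1% in the first, 35.6% and 31.6% in the second and 55.8% and 45.8% in the third. GFP coverage was at most 0.819% in the first, 3.36% in the second and 2.17% in the third. The second alone held a common region, and the longest stitched region of GFP replicate 2 in the window, from 97766663 to 97769997, lay within it.

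The SND1 block ran from 127633373 to 127739716, 106.3 kb, and was 52nd by length. SMARCB1 coverage was 42.5% and 32.7%, and GFP coverage 0.518% and 0%. It held 66 and 64 SMARCB1 peaks, whose median fold enrichment, 3.22 and 3.48, was below the lists' medians. The strongest gained region of the window lay outside it, before its left edge. The plot of block lengths places the members' blocks among the others.

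**Figure D3:**
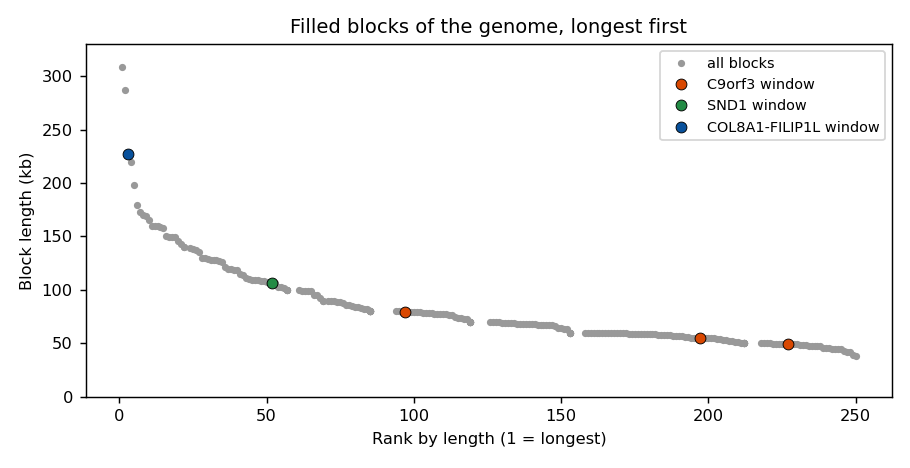
Length in kb of all 250 filled blocks of the genome against their rank, with coloured points for the blocks of the C9orf3, SND1 and COL8A1-FILIP1L windows. The COL8A1-FILIP1L block has rank 3 at 226.8 kb, and the C9orf3 blocks have ranks 97, 197 and 227.

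Which loci count as blocks depended on the peak lists, the libraries and the definition. The block lengths that follow are summed per window and count only the part inside the window. With a -log10 q of at least 5, with equal numbers of the strongest peaks, or with the strongest 40000 peaks of each list, the COL8A1-FILIP1L block remained in its window at 174.9, 178.9 and 171.6 kb, and the C9orf3 and SND1 windows had no block. Scaling every library to the lowest background left block length in all 3 windows, 207.7 kb (COL8A1-FILIP1L), 129.0 kb (C9orf3) and 102.1 kb (SND1). It gave none for TTC28 or KCNH1. The C9orf3 sum was 184.1 kb before scaling, so the blocks of that window were not all kept in full. Without SMARCB1 replicate 2, where a bin is judged on the deeper SMARCB1 library alone, blocks appeared in the windows of TTC28 (111.5 kb) and KCNH1 (70.5 kb), and the block length in the SND1 window became 224.6 kb. Bins of 20 kb gave a block in each of the 5 windows, with 109.3 kb for KCNH1 and 43.5 kb for TTC28. The TTC28 value is the part inside the window, whose filled bins begin at its start, and not the length of a whole block.

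The edges of the blocks are set at the ends of peaks, so a drop in the first step outside follows in part from how they are drawn. In the first 5 kb outside, neither SMARCB1 library had a peak at 6 of the 10 edges. At the left edge of the COL8A1-FILIP1L block, SMARCB1 coverage was 36.5% and 32.7% in the 50 kb inside and 1.14% and 2.41% in the 50 kb outside. GFP coverage outside it, 1.46% and 1.11%, was of the same order. At its right edge, coverage was 64.9% and 58.0% inside and 13.2% and 7.64% outside, and the outside coverage lay in separate patches. It was 0% in both SMARCB1 libraries in the first 5 kb outside, 31.4% and 21.4% in the 5 kb centred 22.5 kb out, 0% again 32.5 and 37.5 kb out and 31.4% and 24.2% 47.5 kb out.

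The left edge of the COL8A1-FILIP1L block was also the sole edge next to acetylation that all libraries shared. The common region from 99536185 to 99537136 ended 3703 bp before it, and the cluster of peaks that the authors' tables leave out there, from 99536185 to 99544115, reached across the edge. Before that common region, no SMARCB1 peak was called over 236.4 and 236.2 kb, up to the window's start. For the other 9 edges the nearest common region lay between 24728 and 339533 bp away.

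At the SND1 block, coverage at the right edge was 49.3% and 35.8% inside and 3.80% and 2.89% outside. At its left edge it was 41.0% and 33.8% inside and 17.7% and 15.2% outside. To the right, both SMARCB1 lists held no peak for 196.1 and 206.9 kb, beginning at 127764427 and 127764200. On the left, neither SMARCB1 library had a peak in the first 15 kb outside, and a separate patch reached 87.9% and 75.1% in the 5 kb centred 37.5 kb out.

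In the C9orf3 window, SMARCB1 means over 50 kb were 28.3% inside and 4.20% outside at the left edge of the first block, and 50.1% and 3.26% at the right edge of the third. The gaps between the blocks were less covered than the blocks. SMARCB1 coverage was 8.70% and 2.69% in the 36.1 kb between the first and the second block. It was 3.38% and 1.33% in the 25.3 kb between the second and the third. Neither gap held a GFP peak. The first gap was not empty throughout, since its last 5 kb, before the second block, were 35.1% and 15.5% covered with SMARCB1. With 2 bins bridged instead of 1, the summed block length in this window was 209.4 kb. The plot of edges gives these profiles in steps of 5 kb.

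**Figure D4:**
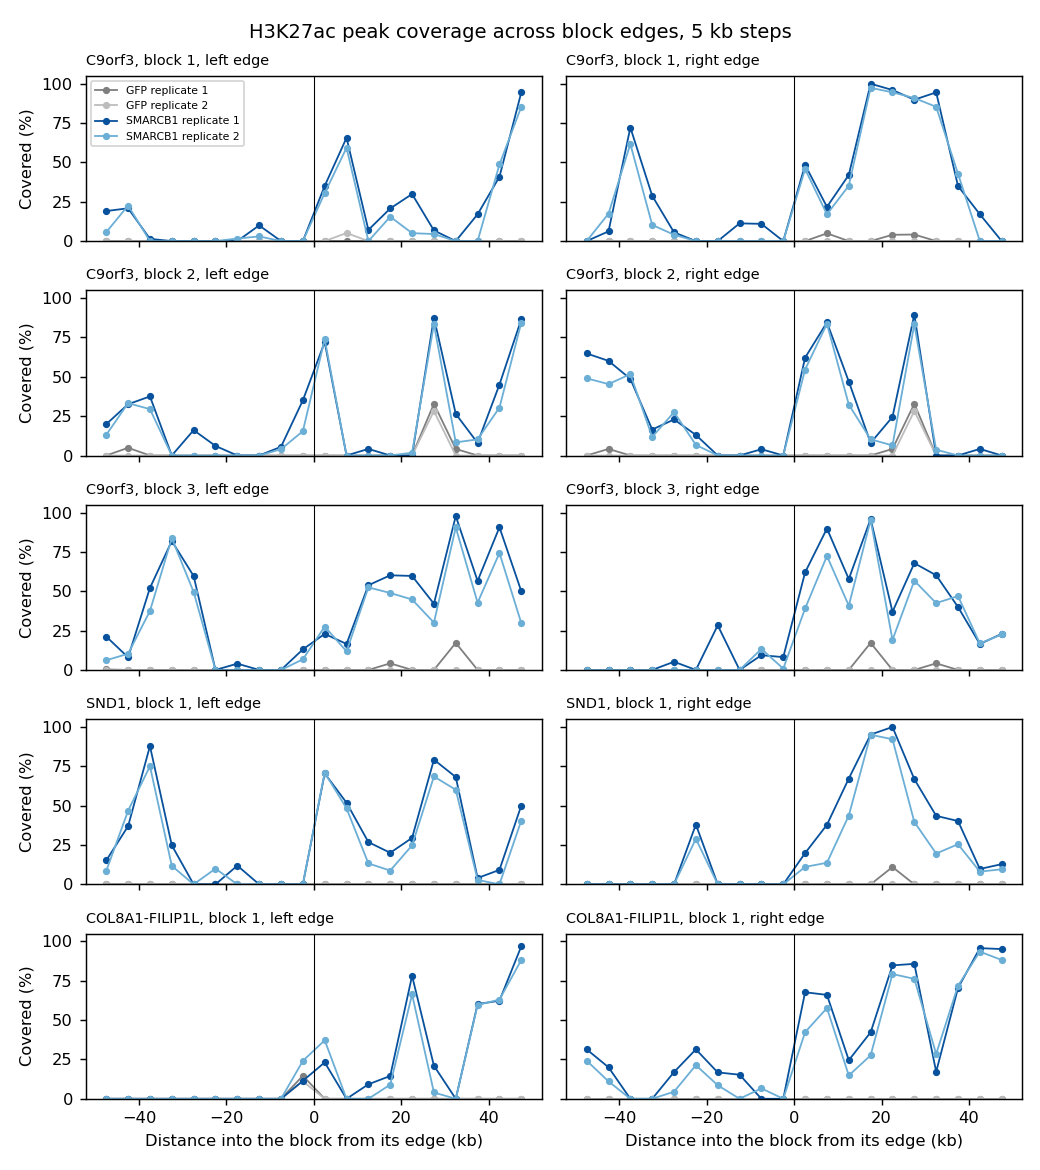
Percentage of each 5 kb step covered by H3K27ac peaks from 50 kb outside (negative distances) to 50 kb inside each edge of the 5 blocks, 1 line per library. At the COL8A1-FILIP1L left edge the SMARCB1 means over 50 kb are 34.6% inside and 1.77% outside, several other edges have separate patches outside, and GFP lines stay near 0 at most edges.

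Positions near transcription starts can be read in part from the authors' own tables, which keep start-distal peaks only. Peaks left out of these tables lay in 6 clusters in the C9orf3 window, 7 in that of SND1, 3 in that of COL8A1-FILIP1L, 2 in that of TTC28 and 1 in that of KCNH1. All 4 libraries had a peak in 4, 4, 2, 2 and 0 of them. In the KCNH1 window the cluster from 211304465 to 211309274 reached a fold enrichment of 14.8 and 12.5 in the SMARCB1 lists and 4.58 in GFP replicate 1, with no peak in GFP replicate 2. Clusters without any GFP peak numbered 2 in the C9orf3 window, 3 in the SND1 window and 1 in the COL8A1-FILIP1L window. The share of such clusters over the genome was not determined here, so nothing is read from these counts. The cluster in the COL8A1-FILIP1L window, from 99832772 to 99834997, lay outside the block, 65114 bp from its right edge. Both in the C9orf3 window lay inside the last of its blocks, from 97825163 to 97829536 and from 97846939 to 97850551. The 3 in the SND1 window lay inside the SND1 block, the first from 127635163 to 127639585, 1790 bp from its left edge. The second, from 127673030 to 127673902, had peaks in SMARCB1 replicate 1 alone, with a highest fold enrichment of 3.05. No gene was assigned to any of these clusters.

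The authors' stitched regions, in which start-distal peaks within 12.5 kb of each other are joined, were longer with SMARCB1 at every locus. In the COL8A1-FILIP1L window, the longest joined 70 and 71 peaks over 138.3 and 127.5 kb with SMARCB1, against 2 peaks over 10.8 kb in GFP replicate 1 and no region in GFP replicate 2. In the C9orf3 window the longest spanned 91.1 and 38.9 kb with SMARCB1 and 5.80 and 3.33 kb with GFP. The SMARCB1 replicates differed here by more than 2 times, and the longer region started at the left edge of the first block.

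In the SND1 window the longest stitched regions spanned 68.4 and 48.5 kb with SMARCB1 and 2.68 and 1.09 kb with GFP, and those with SMARCB1 lay at different places, from 127481408 to 127549847 and from 127564427 to 127612881, both before the block. In the KCNH1 window they spanned 50.9 and 52.1 kb with SMARCB1, at nearly the same place, from 211074701 to 211125617 and from 211074577 to 211126719, and neither GFP table had a region. In the TTC28 window the longest wholly inside the window spanned 57.1 and 47.7 kb with SMARCB1 and 8.32 and 29.5 kb with GFP. Those with SMARCB1 again lay at different places, from 28255587 to 28312680 and from 28378590 to 28426322. A region that crosses the right end of this window was present in all 4 tables, at 34.0 and 33.8 kb with GFP and 78.4 and 78.2 kb with SMARCB1. Peaks in the KCNH1 and TTC28 windows were thus joined into long regions by the authors' distance of 12.5 kb, though not into blocks by coverage.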

How the data were processed

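H3K27ac was measured by enzymatic ChIP-seq, per the labels' protocols, in 2 GFP and 2 SMARCB1 libraries. Reads were processed with BWA 0.7.12-r1039, SAMtools and bedtools on hg19, per the submitters' processing notes. Peaks were called per library with MACS2 and filtered, per the deposited file tags, and the control and the filter's rule are not given in the sources used here. The fold enrichment (a ratio) and the -log10 p and -log10 q of each peak are the authors' deposited values. Stitched regions come from ROSE with start-distal peaks joined within 12.5 kb, per the file headers. Their signal, 1 value for all regions of an ID, was left aside, and 8 columns of per-sample values were left unused.

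The members, windows and lists were chosen with earlier results of these data known. From the intervals, coverage per window and per 10 kb bin, merged regions (overlap from 1 bp) and blocks were computed. Edges were set at the outermost SMARCB1 peak ends within a block's first and last bin. Start-proximal clusters join left-out peaks within 5 kb. Named per window were every block, the 2 gained regions and 1 common region with the highest lower fold enrichment, and likewise 1 lost region. Depth was recovered from fold = (fragments + 1) / (background + 1) and the Poisson upper tail, for 99.7% to 100% of each list. The rules for blocks and regions and the recovery of depth were tried on simulated data. The simulated blocks were evenly covered and the same in both SMARCB1 lists, so patchy blocks were not covered by this trial. Alternatives covered peak thresholds, equal list lengths, bin size, coverage and ratio thresholds, bridging, joining of peaks, scaling of depth (added after the data had been seen) and leaving out each library. No tests were run, and with 2 libraries per group the number of libraries limits the precision. The software was Python 3.11.15 with matplotlib 3.10.9, scipy 1.17.1, pandas 2.3.3 and numpy 2.4.6.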

Additional observations from a re-analysis of the deposited data

How the results depend on the processing

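Coverage was higher with SMARCB1 in each of the 5 windows under all 40 combinations of window and alternative, by 1.59 to 19.2 percentage points. The mean difference of 9.96 points became 7.04 with a -log10 q of at least 5, 7.53 with the strongest 79555 peaks of each list and 5.18 with the strongest 40000. Scaling to the lowest background gave 9.20 points, 272 gained regions, 1 lost region and 438.8 kb of blocks. That scaling keeps or drops whole peaks by their summits and leaves their widths as deposited. Leaving out 1 library gave 8.81 to 11.1 points.

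The 315 gained regions became 149, 171 and 85 under the same 3 choices of peaks and 116 with peaks within 1 kb joined, and without 1 library 320 to 687, the highest without SMARCB1 replicate 2 and 610 without SMARCB1 replicate 1. The 1 lost region became 3, 2, 6 and 0, and without 1 library 1 to 11. Shorter lists hold fewer peaks, joined peaks merge regions and a missing library loosens the definition, so these counts are not directly comparable. With the 3 choices of peaks, gained regions fell while lost regions rose. The summed block length of 517.3 kb became 174.9, 178.9 and 171.6 kb with the 3 choices of peaks, 245.1 kb with bins of 5 kb, 861.4 kb with bins of 20 kb, 826.5 kb with 5% covered, 181.1 kb with 20% covered and 289.4 kb with no bin bridged. Without 1 library it was 508.5 to 938.0 kb, the highest without SMARCB1 replicate 2. The cause of these changes was not tested. The COL8A1-FILIP1L window held a block under all 15 alternatives, that of C9orf3 under 11, that of SND1 under 9, and those of TTC28 and KCNH1 under 3 each.

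Between libraries that carry the same replicate number, coverage was higher with SMARCB1 in all 5 windows, by 7.46 to 19.1 points for number 1 and 4.48 to 17.4 points for number 2. No paired analysis with the number as a block in a test was made, since no result comes from a test. Positions within genes and the other marks were not analysed here.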

Other observations

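Longer blocks than that of COL8A1-FILIP1L, by the same definition, lay at 2 other places. The longest ran over 308.6 kb on chromosome 3 from 171760001 to 172068592. Peaks covered 1.09% and 0.803% of it with GFP and 46.7% and 38.8% with SMARCB1. The second ran over 287.3 kb on chromosome 1 from 214432671 to 214720000. Its coverage was 9.44% and 9.10% with GFP and 59.2% and 50.6% with SMARCB1, so its GFP coverage was above that of each of the members' blocks, where it was at most 3.36%. No gene was assigned to either block.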
